A study of Mus musculus with 4 samples.

Results

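Neuregulin 1 and the ErbB receptors were measured by single-cell RNA sequencing in the hearts of mouse embryos at E10.5. The genes described here are Nrg1 and Hbegf, which encode ligands, and Egfr, Erbb2, Erbb3 and Erbb4, which encode the receptors. They are 6 of the 32285 genes in the files and were chosen by name as a known signalling family. All 4 libraries came from C57BL/6J hearts at E10.5. The Wt libraries (Wt1 and Wt2) were labelled wild-type, and the Ho libraries (Ho1 and Ho2) carried Cyp51 I383V on both alleles (I383V/I383V), an amino acid substitution. The labels of all 4 libraries, Wt included, name CRISPR/Cas9 as the treatment. Cyp51 encodes lanosterol 14-alpha-demethylase, an enzyme of cholesterol synthesis. The substitution is not read by counts per gene, so these data do not check the genotype labels, and the labels do not say how many hearts or litters a library held. The p-values below therefore measure the spread between libraries only.

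Neuregulin is a growth factor of the EGF family that endothelial cells of the heart display to their neighbours. It binds ERBB3 and ERBB4, and ERBB2, which binds no known ligand itself, completes the active receptor pair. ERBB3 signals only with a partner because its own kinase is nearly inactive. In the embryonic heart, signalling from endocardium to myocardium through ERBB2 and ERBB4 is required for the muscular ridges called trabeculae, and ERBB3 is required in the endocardial cushions from which the valves form. HB-EGF, the product of Hbegf, binds EGFR and ERBB4 and is known for its role in the remodelling of the valves.

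The droplet assay tags every captured mRNA with a molecular barcode, the UMI, and the files give the number of distinct UMIs for each gene in each cell. Totals were 109893733 UMIs for Wt1, 117034633 for Wt2, 127018819 for Ho1 and 107377100 for Ho2. After filters on depth, mitochondrial counts and doublets, 29168 cells were kept, which were 8908 from Wt1, 7154 from Wt2, 6980 from Ho1 and 6126 from Ho2. The median cell held 10562.5 UMIs in Wt1, the shallowest library, against 14216 for Wt2 and 15620.5 and 15806 for the Ho libraries. Ho1 stood apart in sex: Xist, the RNA of the inactive X chromosome, had 28846 UMIs in Ho1 and at most 5 in each other library, and 4 genes of the Y chromosome had 0 UMIs in Ho1 and at least 8828 in the others. Pairs of libraries shared between 14 and 34 cell barcodes.

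Cells were sorted into 6 gates by marker genes that are not members of the family. Cells with a high sum of the cardiomyocyte transcripts Tnnt2, Actc1, Tnni1, Ttn and Myl4 were called ventricular where Myl2 was high (5378 cells), or atrial where Myl2 was low and Stard10 was detected (3037 cells). Among the other cells, endocardium had at least 1 UMI each of Cdh5 and Npr3 (4353 cells). Cushion mesenchyme had at least 2 UMIs of Hapln1 (2596 cells), epicardium at least 2 of Upk3b (641 cells) and epithelium at least 2 of Epcam (871 cells), each with no UMI of Cdh5 or of the markers of the others among Upk3b and Epcam. The epithelium gate held no cell of Ho1, and its values rest on 3 libraries. Endothelial cells with at least 2 UMIs of Cdh5 and none of Npr3 (1316 cells) formed an extra gate, and 10976 cells (37.6%) stayed outside all gates. The gates were checked with 29 markers that were not used to make them, such as Nfatc1 and Emcn for endocardium, Irx4 and Myh7 for ventricle, Sox9 and Twist1 for mesenchyme and Wt1 and Tbx18 for epicardium, and all 29 had their highest mean level in their own one of the 6 gates. Levels are given as CPM, the UMIs of a gene per 1000000 UMIs of all genes in the cells of a gate and library, with the mean ± SD over libraries, and are compared between cells and not between genes. Of the endocardium markers, Nfatc1 (76.7 against 50.4 CPM), Pecam1 (174 against 137) and Egfl7 (643 against 600) were higher in the extra gate than in endocardium. Emcn (213 against 337) and Plvap (224 against 279) were lower there. CPM carry no further scaling, while the fold changes and tests of edgeR use TMM factors, which correct for the RNA composition of the cells. Without these factors the median gene moved by up to 0.45 on the log2 scale between gates (0.25 for endocardium over ventricular cells), so a ratio of CPM and a fitted fold change can differ. Free RNA in the droplets sets a floor for such levels. Myl2, a ventricular transcript, reached in endocardium 0.430% of its ventricular level, and Emcn, an endothelial transcript, reached in ventricular cells 1.12% of its endocardial level.

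The receptor genes Erbb4 and Erbb2 lie on chromosome 1 (68032186 to 69108059, minus strand) and chromosome 11 (98412470 to 98437716, plus strand) of GRCm38. Egfr lies on chromosome 11 (16752203 to 16918158), Erbb3 on chromosome 10 (128567523 to 128589652) and Nrg1 on chromosome 8 (31814551 to 32884029). The promoter table of RefSeq held 3 of the 6 genes. The 250 bases before the RefSeq start of Erbb2 (chr11:98412234-98412483, plus strand) and of Erbb4 (chr1:69108060-69108309, minus strand) follow from RefSeq on GRCm38.p6, because these receptors had their highest levels in the same cells, the cardiomyocytes. The capitals mark CG dinucleotides.
Erbb2: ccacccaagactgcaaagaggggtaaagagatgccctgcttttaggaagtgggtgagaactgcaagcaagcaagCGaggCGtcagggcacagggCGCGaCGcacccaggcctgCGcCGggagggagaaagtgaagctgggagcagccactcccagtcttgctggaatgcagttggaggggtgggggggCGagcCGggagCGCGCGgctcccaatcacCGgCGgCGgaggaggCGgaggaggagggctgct
Erbb4: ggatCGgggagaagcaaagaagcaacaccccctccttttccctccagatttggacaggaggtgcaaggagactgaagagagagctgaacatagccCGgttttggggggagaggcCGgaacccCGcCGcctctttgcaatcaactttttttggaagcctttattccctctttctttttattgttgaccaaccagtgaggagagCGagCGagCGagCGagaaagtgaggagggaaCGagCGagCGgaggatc
The Erbb2 window held 16 CG dinucleotides and the Erbb4 window 12, and the median over the 32851 promoters in the table was 6. Their GC content was 66% and 54%, beside a median of 52.4%. In the 300 bases that also include the first 50 transcribed bases, none of 5 motifs of cardiac transcription factors was found in Erbb2, Erbb4 or Egfr on either strand. For GATA factors the letters searched were AGATAA, present in 11.2% of all promoters. For NKX2-5 they were CAAGTG (13.6%), and for T-box factors GGTGTG (19.0%). For MEF2 they were TAAAAATA (2.72%), and for MEIS factors TGACAG (19.2%). A missing match says only that these letters are not in the window.

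Nrg1, the neuregulin gene, was an endothelial transcript in these hearts. Its level in endocardium was 42.3 and 39.2 CPM in the libraries Wt1 and Wt2 and 34.0 and 32.6 CPM in Ho1 and Ho2 (36.997 ± 4.51, n = 4). In Cdh5 cells without Npr3 it was 34.7, 45.4, 48.2 and 32.0 CPM in the same order of libraries (40.1 ± 7.95). The ranges of these gates overlapped, and edgeR's quasi-likelihood test did not separate them (log2 fold change of endocardium over Cdh5 cells without Npr3 -0.09 ± 0.11 SE, adjusted p = 0.612). Cushion mesenchyme followed at 19.9, 16.2, 14.0 and 16.3 CPM (16.6 ± 2.40), below every endocardial library. Ventricular cardiomyocytes had 1.01 ± 0.435 CPM, atrial cardiomyocytes 1.15 ± 0.360, epicardium 0.492 ± 0.265 and epithelium 3.61 ± 1.19 (n = 3).
Endocardium was 28.0-fold above ventricular cardiomyocytes (log2 4.81 ± 0.15 SE, adjusted p = 3.2e-20 by edgeR) and 2.38-fold above mesenchyme (log2 1.25 ± 0.11, adjusted p = 5.8e-10). The ventricular and atrial levels did not differ beyond their spread (adjusted p = 0.922 by edgeR). Nrg1 in ventricular cells was 2.72% of its endocardial level, where Emcn was 1.12%, Pecam1 1.78% and Egfl7 5.32%. Of the 4956 Nrg1 UMIs, 57.1% lay in the endocardium gate, 15.3% in Cdh5 cells without Npr3 and 12.2% in mesenchyme, while the endocardium gate held 18.6% of the UMIs of all genes.

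Hbegf had UMIs in every gate. It was highest in mesenchyme, with 43.8, 37.1, 42.3 and 32.0 CPM in Wt1, Wt2, Ho1 and Ho2 (38.8 ± 5.37), and in Cdh5 cells without Npr3, with 33.0, 33.4, 47.3 and 39.2 CPM (38.2 ± 6.69). Ventricular cardiomyocytes had 24.4 ± 2.83 CPM and endocardium 22.7 ± 2.08, with overlapping ranges. The fitted log2 fold change of endocardium over ventricular cells was -0.34 ± 0.10 SE (adjusted p = 0.00455 by edgeR), but -0.09 without composition scaling (adjusted p = 0.463 by edgeR). These were followed by atrial cardiomyocytes at 15.1 ± 1.53, epicardium at 14.4 ± 4.06 and epithelium at 14.0 ± 2.27. All 4 mesenchymal values were above the highest endocardial value of 25.3. Mesenchyme was 1.61-fold above endocardium (log2 fold change of endocardium over mesenchyme -0.69 ± 0.10 SE, adjusted p = 4.1e-06 by edgeR). Within the endothelium, Hbegf was lower in endocardium than in Cdh5 cells without Npr3 (log2 -0.71 ± 0.12, adjusted p = 5.1e-05 by edgeR). With gates set on thinned counts this was -0.31 and did not pass (adjusted p = 0.134 by edgeR). Ventricular cells exceeded atrial cells 1.72-fold (log2 0.78 ± 0.11, adjusted p = 3.4e-06 by edgeR). The atrial, epicardial and epithelial levels were not separated (adjusted p = 0.311 for atrial against epicardial cells, 0.0586 for atrial against epithelial cells and 0.459 for epicardial against epithelial cells, all by edgeR).

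**Figure D1:**
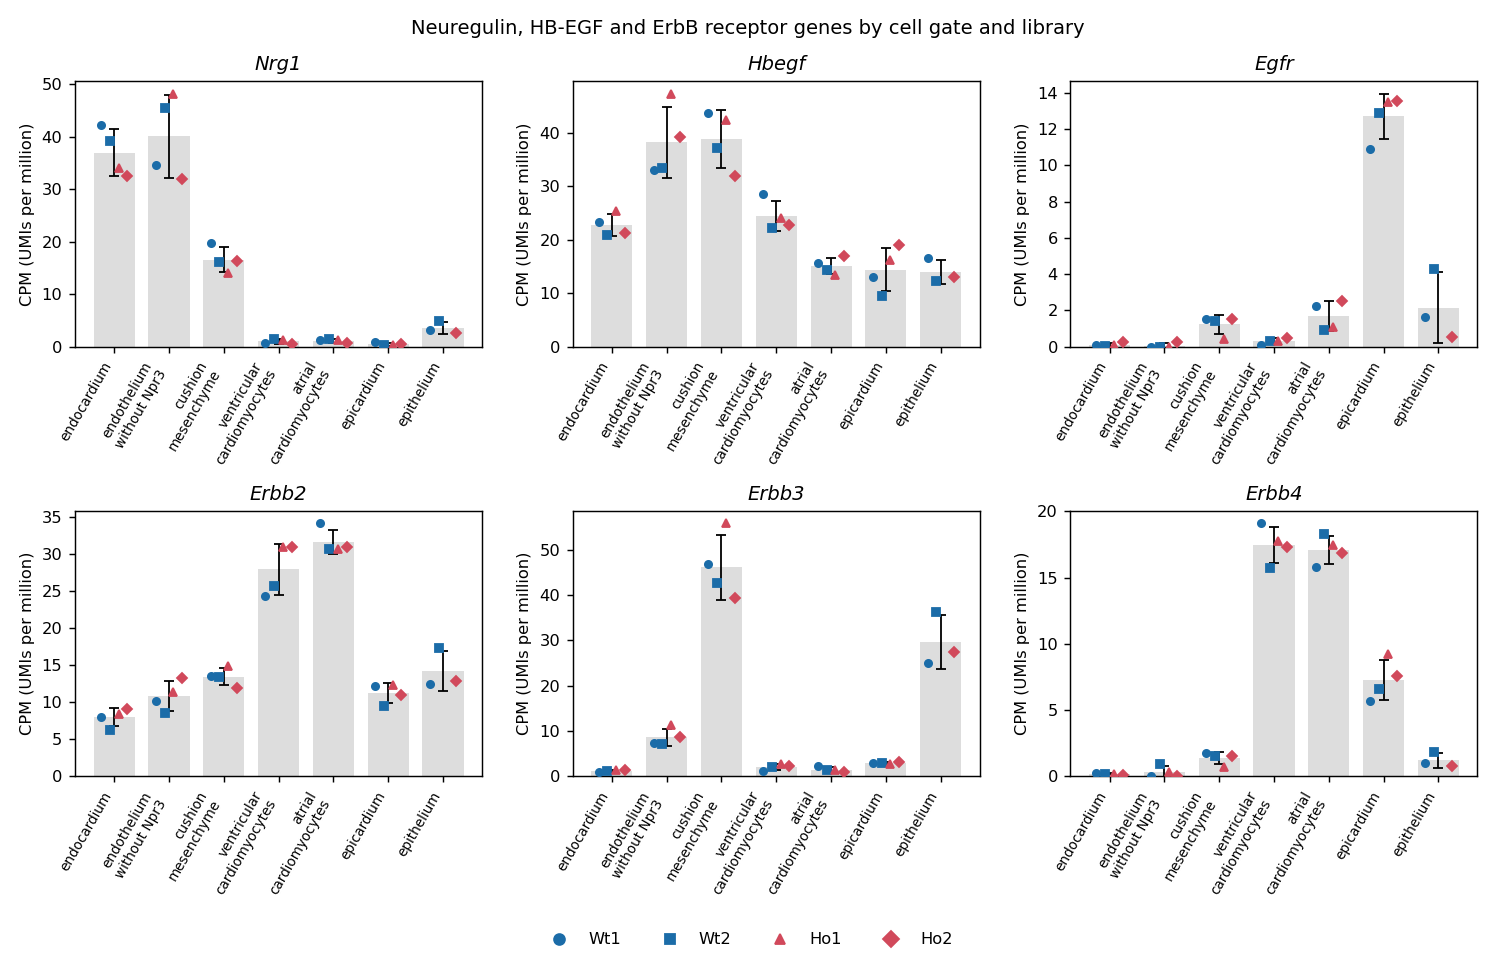
Levels of the 6 genes in CPM (vertical axis, a separate linear scale for each gene) by gate, with 1 point per library, bars for the mean and error bars for the SD. Nrg1 stands high in the endothelial gates, Erbb2 and Erbb4 in the ventricular and atrial gates, Erbb3 in mesenchyme and epithelium, and Egfr in epicardium, where its mean was 12.7 CPM.

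Erbb4, which encodes a receptor for neuregulin, was a transcript of cardiomyocytes. Its level in ventricular cells was 19.1 and 15.7 CPM in Wt1 and Wt2 and 17.7 and 17.3 CPM in Ho1 and Ho2 (17.5 ± 1.38), and in atrial cells 15.8, 18.3, 17.5 and 16.8 CPM (17.1 ± 1.06). The values of the chambers overlapped throughout, with a log2 fold change of ventricular over atrial cells of 0.12 ± 0.11 SE (adjusted p = 0.432 by edgeR). Epicardium had less than cardiomyocytes but far more than the other gates, with 5.68, 6.58, 9.24 and 7.57 CPM (7.27 ± 1.53), and the atrial level was 2.63-fold above it (log2 1.39 ± 0.17, adjusted p = 1.1e-07 by edgeR). Mesenchyme and epithelium had 1.38 ± 0.483 and 1.22 ± 0.557 CPM and were not separated (adjusted p = 0.526 by edgeR). In endocardium, Erbb4 had 15 UMIs in 4353 cells (0.194 ± 0.0449 CPM), which is 1.11% of the ventricular level, beside 0.430% for Myl2. Ventricular cells were 101-fold above endocardium (log2 fold change of endocardium over ventricular cells -6.65 ± 0.21, adjusted p = 3.5e-20 by edgeR). Cardiomyocytes of the ventricular and atrial gates held 49.9% and 31.4% of the 3116 Erbb4 UMIs.

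Erbb2, the partner receptor without a ligand, was also highest in cardiomyocytes but was found in every gate. Its level in ventricular cells was 24.3, 25.7, 30.9 and 30.9 CPM in Wt1, Wt2, Ho1 and Ho2 (27.9 ± 3.45), and in atrial cells 34.1, 30.7, 30.7 and 30.9 CPM (31.6 ± 1.68). These chambers were not separated (log2 -0.06 ± 0.08 SE, adjusted p = 0.738 by edgeR). Epithelium had 14.2 ± 2.65 CPM, mesenchyme 13.5 ± 1.19 and epicardium 11.2 ± 1.34, and none of these 3 was separated from another (adjusted p of 0.579, 0.204 and 0.597 by edgeR). Endocardium was lowest at 7.95 ± 1.21 CPM, with 8.01, 6.25, 8.45 and 9.07 in the 4 libraries. Ventricular cells were 2.62-fold above mesenchyme (log2 1.39 ± 0.09, adjusted p = 2.2e-13) and 4.25-fold above endocardium (adjusted p = 1.2e-17 by edgeR). Erbb2 in endocardium was 25.1% of its atrial level, and Myl2 there was 0.430% of its ventricular level. Among the cardiomyocyte transcripts that the gating used, Tnni1 had 167 CPM in endocardium and 1903 CPM in ventricular cells. In the same order Tnnt2 had 50.8 and 3427 CPM, Actc1 67.5 and 13522, Myl4 51.5 and 6385, and Ttn 11.8 and 3750. The part of free RNA in the endocardial Erbb2 level was not tested.

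Erbb3, the receptor with the weak kinase, had its highest level among the heart gates in mesenchyme. It had 46.8 and 42.6 CPM in Wt1 and Wt2 and 55.8 and 39.3 CPM in Ho1 and Ho2 (46.1 ± 7.16), while epithelium had 25.0, 36.3 and 27.6 CPM in Wt1, Wt2 and Ho2 (29.6 ± 5.96). Every mesenchymal value was above every epithelial value, and the difference was 1.66-fold (log2 0.73 ± 0.13 SE, adjusted p = 2.8e-05 by edgeR). It did not pass with gates set on thinned counts (log2 0.14, adjusted p = 0.441 by edgeR). Epicardium had 2.94 ± 0.188 CPM, ventricular cells 2.09 ± 0.578, atrial cells 1.49 ± 0.594 and endocardium 1.25 ± 0.250. Mesenchyme was 34.3-fold above endocardium (adjusted p = 4.0e-20) and 16.6-fold above ventricular cells (adjusted p = 1.6e-20 by edgeR). Endocardium and atrial cells were not separated (adjusted p = 0.293 by edgeR), nor were ventricular cells and epicardium (adjusted p = 0.564).
The 2 endothelial gates differed in Erbb3. Cdh5 cells without Npr3 had 7.33, 7.23, 11.3 and 8.70 CPM, all above the highest endocardial value of 1.47, and endocardium was 6.62-fold lower (log2 -2.73 ± 0.20, adjusted p = 3.1e-10 by edgeR). Of the 5 mesenchyme markers used to check the gates, 4 had a higher mean in Cdh5 cells without Npr3 than in endocardium. Sox9 had 41.4 against 10.8 CPM, Twist1 138 against 65.9, Cthrc1 76.6 against 28.3 and Papss2 3.44 against 1.56, while Postn had 12.8 against 21.6. The neuron markers Tubb3, Stmn2 and Elavl3 summed to 277, 299, 187 and 302 CPM in Cdh5 cells without Npr3 and to 98.7, 75.5, 52.3 and 92.6 CPM in endocardium, in the order Wt1, Wt2, Ho1 and Ho2, with Stmn2 the most abundant in each and Elavl3 at 0 in Wt1 of the first gate. The blood marker genes summed to 132, 1883, 2394 and 183 CPM in Cdh5 cells without Npr3, in the same order of libraries. In endocardium they summed to 77.1, 72.8, 276 and 118 CPM. The part of any of these lists in the difference was not tested.

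Cells of the neural crest and glia also use Erbb3, and the heart at this stage can contain them. The 168 kept cells with a Sox10 UMI, of which 94 were in the mesenchyme gate, had an Erbb3 level of 61.3, 64.9, 73.0 and 58.4 CPM in Wt1, Wt2, Ho1 and Ho2 (64.4 ± 6.35). Sox10 encodes a transcription factor of the neural crest. In the 2502 of 2596 mesenchymal cells without such a UMI the Erbb3 level was 45.2 ± 6.99 CPM, a value computed after the others were seen. A cell can lack a Sox10 UMI by chance, and the part of such cells in the mesenchymal level was not tested. Of the marker lists for other cell types, the neuron markers Tubb3, Stmn2 and Elavl3 summed to between 122 and 129 CPM in mesenchyme, most of it Tubb3, and the macrophage markers to at most 31.4 CPM in any gate and library. The list for skeletal and pharyngeal muscle was nearly all Tcf21, an epicardial gene, with Myod1 at 0 or nearly so. In a split chosen after the values were seen, mesenchymal cells with a UMI of Sox9, a transcription factor of cushion mesenchyme, had 50.6 ± 6.89 CPM of Erbb3 and those without one 33.1 ± 8.67, and the first value was the higher one in each of the 4 libraries. For Nrg1 the order was opposite in each of the 4 libraries, with 14.8 ± 2.03 CPM in cells with Sox9 and 22.0 ± 3.26 in those without.

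The mesenchyme gate asks for no Cdh5 UMI, and a cell can miss a UMI by chance. Other endothelial transcripts remained in it, with Emcn at 5.54%, Egfl7 at 26.8% and Pecam1 at 28.6% of their endocardial levels, while Nrg1 was at 44.9%. The gate was therefore split by a UMI of Pecam1, a choice made after its values were seen. Nrg1 was 26.3, 16.8, 14.0 and 19.0 CPM in the 892 cells with Pecam1 and 16.5, 15.9, 14.1 and 14.5 CPM in those without, in the order Wt1, Wt2, Ho1 and Ho2. The log2 fold change was 0.27 ± 0.13 SE (adjusted p = 0.309 by edgeR), with 1 of the 4 members tested called beside 5.02% of all genes. That member was Erbb3, which was lower in cells with Pecam1 in each of the 4 libraries (40.8 ± 7.55 against 49.1 ± 6.91 CPM, log2 -0.26 ± 0.08, adjusted p = 0.042 by edgeR).

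**Figure D2:**
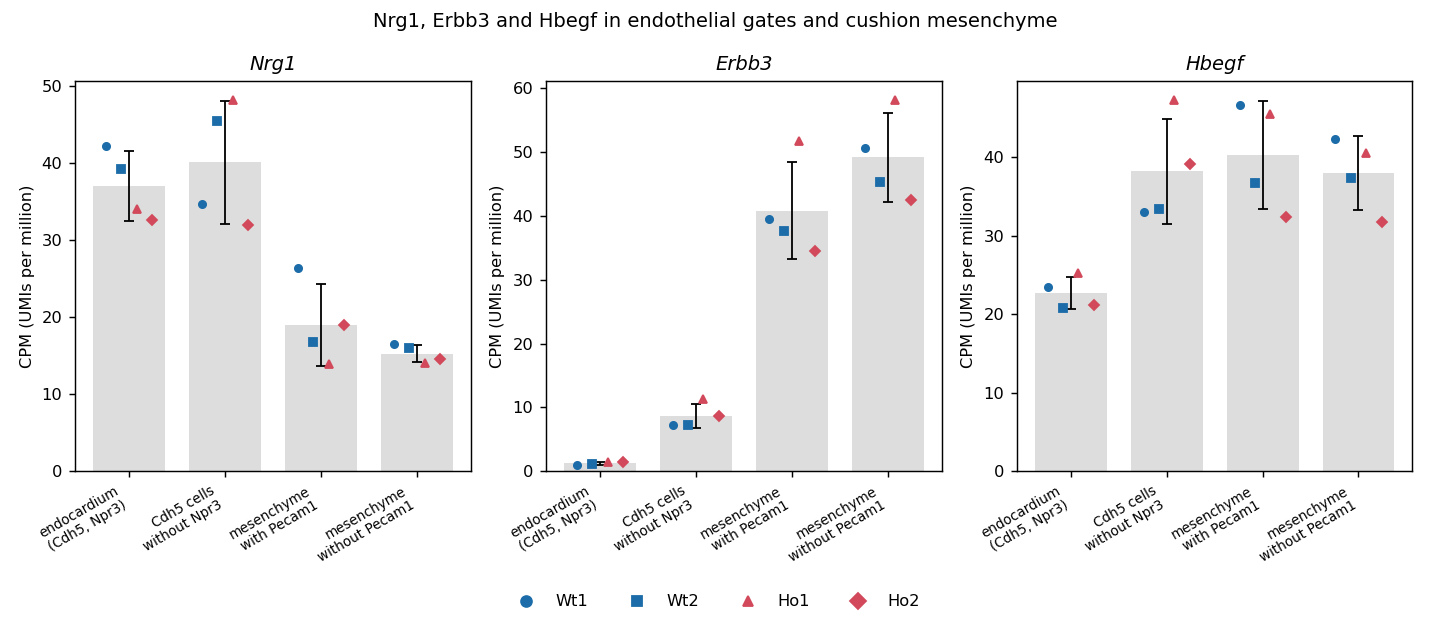
Nrg1, Erbb3 and Hbegf in CPM (vertical axis, linear) in endocardium, in Cdh5 cells without Npr3 and in mesenchymal cells with and without a Pecam1 UMI. Points are libraries, bars means and error bars SD (n = 4). Mesenchymal cells without Pecam1 had 15.3 CPM of Nrg1 on average, and Erbb3 was at least 34.5 CPM in every mesenchymal library on either side of the split.

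Egfr had the fewest UMIs of the members, with 618 in all kept cells, and its highest level was in epicardium. There it had 10.9 and 12.9 CPM in Wt1 and Wt2 and 13.5 and 13.6 CPM in Ho1 and Ho2 (12.7 ± 1.24). All values in the other gates were below this range, with 4.31 CPM in the epithelium of Wt2 the highest. Epithelium had 2.16 ± 1.95 CPM, atrial cells 1.70 ± 0.808, mesenchyme 1.23 ± 0.541, ventricular cells 0.299 ± 0.158 and endocardium 0.115 ± 0.0997. The atrial, mesenchymal and epithelial levels were not separated (adjusted p from 0.114 to 0.707 by edgeR). Ventricular cells were below epithelium (log2 -1.75 ± 0.61 SE, adjusted p = 0.0141 by edgeR), which turned to 0.29 with the Ho libraries only, where the epithelium was 1 library with 2 Egfr UMIs. That call was lost without Wt1 (adjusted p = 0.114 by edgeR) and without Wt2 (adjusted p = 0.162 by edgeR). Epicardium was 7.01-fold above atrial cells (log2 fold change of atrial over epicardial cells -2.81 ± 0.31 SE, adjusted p = 1.1e-08 by edgeR). In endocardium Egfr had 8 UMIs in 4353 cells. The gates left out 41.7% of the Egfr UMIs, a larger share than for any other member, and the epicardium gate held 27.5% of them with 3.18% of the UMIs of all genes.

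**Figure D3:**
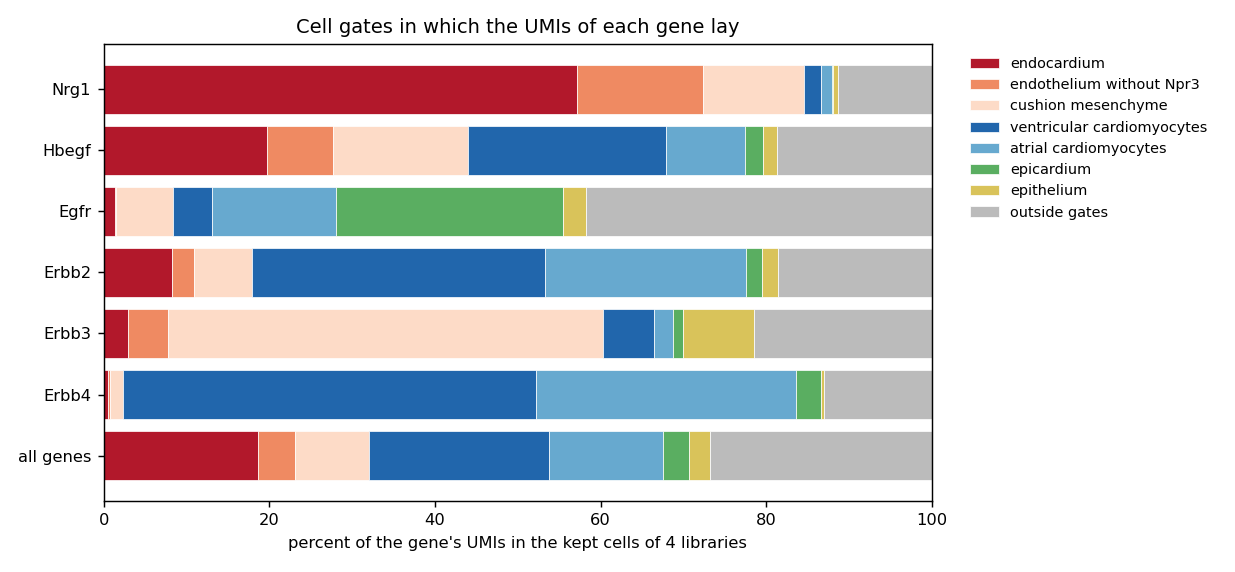
Percent of each gene's UMIs (horizontal axis) that lay in each gate or outside all gates, over the kept cells of the 4 libraries, with the UMIs of all genes in the lowest bar. The endocardium gate held 57.1% of the Nrg1 UMIs, the ventricular gate 49.9% and the atrial gate 31.4% of the Erbb4 UMIs, and mesenchyme 52.4% of the Erbb3 UMIs.

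Between the 6 gates there were 15 pairs and 90 tests of the members, and 75 passed an adjusted p of 0.05 in edgeR. Nrg1 passed in 14 pairs, Erbb3 and Erbb4 in 13, Hbegf and Egfr in 12 and Erbb2 in 11. Many genes differed between these cell types. Of the 14178 genes tested, 74.3% passed between endocardium and ventricular cells, 73.7% between endocardium and atrial cells, 49.2% between endocardium and mesenchyme, 52.1% between endocardium and epicardium and 61.5% between endocardium and epithelium. All 6 members passed in 4 of these comparisons and 5 did in that with atrial cells. Some of these calls did not hold in every alternative. They were Hbegf and Egfr against ventricular cells, Hbegf and Erbb2 against epicardium, and Egfr, Erbb2 and Erbb4 against epithelium. Ventricular and atrial cells were the most alike, with 34% of genes called and 3 of 6 members (Hbegf and Erbb3 higher in ventricular cells, Egfr in atrial cells). Ventricular cells differed in 71% of genes from mesenchyme, 62% from epicardium and 64.2% from epithelium, with 6, 5 and 6 members called. For atrial cells the shares were 69%, 60.7% and 61.7%, with 5, 5 and 4 members. Mesenchyme differed in 44.3% of genes from epicardium (5 members) and 54.3% from epithelium (3 members), and epicardium from epithelium in 49.6% (4 members). Between endocardium and Cdh5 cells without Npr3, 22% of genes passed, and of the members Hbegf, Erbb2 and Erbb3 did, each lower in endocardium. The Erbb2 call was lost when any 1 of the 4 libraries was left out (adjusted p from 0.0514 to 0.111 by edgeR), and the Hbegf call with gates on thinned counts. Between ventricular and atrial cells the Erbb3 call was lost without Ho1 (adjusted p = 0.0914 by edgeR) and without Ho2 (adjusted p = 0.0523 by edgeR). The Egfr call of that pair did not hold in every alternative either. Of the 78 calls of members between gates, with Cdh5 cells without Npr3 included, 57 held in every alternative.

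Detection in single cells was compared after thinning each cell to 5000 UMIs, which left 16444 of the 18192 cells of the gates and set the share below the unthinned one. A UMI of Nrg1 was then found in 15.4% ± 1.86 of endocardial cells (37.5% before thinning) and in 0.348% ± 0.403 of ventricular cells (1.48% before thinning). The median depth of these gates before thinning was 16533 and 17828 UMIs per cell. Erbb2 was detected in 13.0% ± 1.90 of ventricular cells, Erbb4 in 8.41% ± 0.956, and both together in 0.915% ± 0.357. Before thinning these shares were 33.2%, 21.9% and 9.71%. In endocardium the share with Erbb4 was 0.0983% after thinning. Erbb3 was detected in 19.6% ± 3.74 of mesenchymal cells (41.3% before thinning, at a median of 14131.5 UMIs per cell) and in 0.618% ± 0.352 of endocardial cells. At least 1 of Erbb2, Erbb3 and Erbb4 was seen in 25.3% ± 3.44 of mesenchymal cells, 21.5% ± 2.35 of ventricular cells, 22.3% ± 0.562 of atrial cells and 4.27% ± 1.02 of endocardial cells. Before thinning these shares were 52.0%, 46.6%, 54.7% and 14.3%, so that the order of mesenchymal and atrial cells turned with the depth used. Mesenchymal cells with Nrg1 and Erbb3 together made up 1.05% ± 0.183 of that gate (7.27% before thinning).

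Trabecular and compact ventricular cells were compared because neuregulin signalling is best known from the trabeculae. Ventricular cells with a UMI of Bmp10 and none of Hey2 were taken as trabecular (808 cells), and those with Hey2 and no Bmp10 as compact (1072 cells). Nppa, a trabecular transcript that the split did not use, had 8298 ± 1978 CPM in the trabecular and 858 ± 372 CPM in the compact cells. No receptor passed the test between these zones. Erbb2 had 26.5, 26.8, 26.0 and 34.5 CPM in trabecular cells of Wt1, Wt2, Ho1 and Ho2 and 25.5, 25.5, 30.8 and 32.6 CPM in compact cells (log2 -0.03 ± 0.09 SE, adjusted p = 0.836 by edgeR). Erbb4 had 19.9, 15.9, 15.7 and 23.7 CPM in trabecular cells and 17.9, 15.7, 21.2 and 14.9 CPM in compact cells (log2 0.03 ± 0.13, adjusted p = 0.889 by edgeR). It was higher in the compact cells of Ho1 and in the trabecular cells of Ho2. Hbegf and Erbb3 did not pass either (log2 0.10 ± 0.11 and -0.25 ± 0.33). None of these 4 members passed, beside 29.2% of all genes tested. Nrg1 and Egfr were below the count filter, with 25 and 5 UMIs in the trabecular cells.

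Other genes of the pathway were compared between the same zones. In a list of 59 other genes of the ErbB pathway, grouped by role, 48 were tested here, and 9 were higher and 5 lower in trabecular cells. The 14 called were 29.2% of the list, the same share as over all genes (29.2%), with a median log2 fold change of 0.03 beside 0.00 over all genes. Of the 8 feedback and early response genes tested, 7 were higher, where 14.2% of all genes were, with a median of 0.71. Etv4, Spred2 and Dusp4 are named after their values were seen. The 7 were Etv4 and Etv5, which encode ETS transcription factors, the phosphatase genes Dusp4 and Dusp6, Spred1 and Spred2, which encode inhibitors of the RAS pathway, and the early response gene Egr1. Etv5 rose from 6.50 ± 0.922 CPM in compact to 14.6 ± 2.90 CPM in trabecular cells (log2 1.23 ± 0.15 SE, adjusted p = 1.7e-09 by edgeR), and Egr1 from 36.0 ± 6.78 to 58.0 ± 10.4 CPM (log2 0.68 ± 0.07, adjusted p = 1.0e-10). Dusp6 was 15.5 ± 4.65 CPM in compact and 24.4 ± 0.223 CPM in trabecular cells (log2 0.61 ± 0.12, adjusted p = 5.8e-05 by edgeR), and Spred1 15.01 ± 2.98 and 23.4 ± 3.07 (log2 0.61 ± 0.11, adjusted p = 8.2e-06). Myc had a log2 fold change of 0.09 ± 0.26. Errfi1, which encodes an inhibitor of ErbB kinases, was higher in trabecular cells (log2 0.58 ± 0.15, adjusted p = 0.0018 by edgeR), and Ptprk, a receptor phosphatase gene, was lower (log2 -0.38 ± 0.13, adjusted p = 0.021). Leaving out Wt1, Wt2 or Ho2 left 6 of the 8 higher. These genes respond to many growth factors and are not particular to ErbB receptors.

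Of the same list, 52 genes were tested between gates. Between endocardium and ventricular cells 23 were higher and 20 lower in endocardium (28 and 17 without composition scaling), so that 82.7% of the list was called beside 74.3% of all genes. All 5 sheddases, the proteases that release EGF family ligands from the membrane, were higher in endocardium, with a median log2 fold change of 0.82, where 36.2% of all genes were higher. All 5 were lower in ventricular cells than in mesenchyme, with a median of -0.83, where 35.7% of all genes were lower. Without composition scaling all 5 were again called in both comparisons. Of the 14178 genes, 6954 were then higher in endocardium than in ventricular cells, and 7527 lower in ventricular cells than in mesenchyme. Adam19, a sheddase gene with a known role in the valves, had 51.7 ± 3.51 CPM in endocardium, 58.8 ± 4.76 in mesenchyme and 11.3 ± 1.11 in ventricular cells (log2 1.93 ± 0.08 for endocardium over ventricular cells, adjusted p = 3.2e-17 by edgeR). Mapk3, the gene of the kinase ERK1, was higher in endocardium than in ventricular cells (log2 2.43 ± 0.06), as were Myc (log2 2.27 ± 0.11) and the ErbB inhibitor gene Lrig1 (log2 2.07 ± 0.14). Akt2 (log2 -1.91 ± 0.09) and Egr1 (log2 -1.81 ± 0.17) were lower.
Between endocardium and mesenchyme 13 genes were higher and 16 lower in endocardium (10 and 18 without composition scaling), or 55.8% called beside 49.2% of all genes. Pik3cb, which encodes a catalytic subunit of PI3-kinase, was lower (2.81 against 19.8 CPM, log2 -2.78 ± 0.13, adjusted p = 1.6e-15 by edgeR), and Lrig1 was higher (17.2 against 3.05 CPM, log2 2.61 ± 0.16, adjusted p = 3.9e-13). Between ventricular and atrial cells 13 were higher and 9 lower in ventricular cells, a balance that turned to 11 and 16 without composition scaling. This was 42.3% of the list beside 34% of all genes. Egr1 (log2 -0.95 ± 0.15) and Dusp6 (log2 -0.52 ± 0.08) were among those lower. The other ligand genes were scarce: Areg had 6.29 ± 1.75 CPM in atrial cells, Tgfa 4.74 ± 0.942 in epithelium and Nrg2 2.70 ± 2.06 in epicardium, and Egf had less than 1 CPM on average in every gate.

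Wt and Ho were then compared for each gate. None of the 35 tests of a member, in 5 of the gates, in Cdh5 cells without Npr3 and in whole libraries, passed an adjusted p of 0.05 in edgeR. An unadjusted p under 0.05 was found in 5 of the 35 (14.3%), beside 5.49% of the tests of all genes in these 7 fits, and whole libraries share their cells with the gates. DESeq2 called none of them either. Few genes of any kind passed in edgeR: 0.00759% in endocardium, 0% in ventricular cells, 0.00772% in atrial cells, 0.0245% in mesenchyme, 0.0487% in epicardium, 0.036% in Cdh5 cells without Npr3 and 0% in whole libraries. DESeq2 called between 4 and 22 genes in these fits. With 2 libraries against 2, an exact permutation test of a single value could not give a p below 0.333. A p that misses the threshold does not show that the genotypes were alike, and the SE of each difference is only a rough guide to what could have been missed. Epithelium was not tested because Ho1 held no such cell.

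Endocardial Nrg1 was 42.3 and 39.2 CPM in the Wt libraries and 34.0 and 32.6 CPM in the Ho libraries, which did not overlap (log2 -0.25 ± 0.10 SE, adjusted p = 0.918 by edgeR). The blood marker genes summed in endocardium to 77.1 and 72.8 CPM in Wt1 and Wt2 and to 276 and 118 CPM in Ho1 and Ho2, with Hbb-y the most abundant, so that they too did not overlap, and their part in the Nrg1 values was not tested. In Cdh5 cells without Npr3 the same gene overlapped between genotypes (log2 0.04 ± 0.19), and in mesenchyme it was -0.24 ± 0.16 with 1 Ho library (16.3 CPM) just above 1 Wt library (16.2 CPM). Ventricular Erbb2 gave the values of Ho above those of Wt (30.9 and 30.9 against 24.3 and 25.7 CPM, log2 0.26 ± 0.10, adjusted p = 0.487 by edgeR). Blood marker genes stood high in Ho1 there, with summed levels of 4.1, 11.7, 234 and 11.9 CPM in Wt1, Wt2, Ho1 and Ho2, and their part in the Erbb2 values was not tested. In atrial cells Erbb2 overlapped (log2 -0.05 ± 0.11). Erbb4 was nearly equal between genotypes in ventricular cells (log2 -0.00 ± 0.13) and atrial cells (log2 0.02 ± 0.13), and its libraries overlapped in both. Erbb3 in mesenchyme overlapped as well, because the Ho libraries were the highest and the lowest of the 4 (log2 0.12 ± 0.15, adjusted p = 0.974 by edgeR).
Hbegf had the smallest unadjusted p-values of the members. In epicardium it was 13.1 and 9.48 CPM in Wt and 16.2 and 18.9 CPM in Ho (log2 0.72 ± 0.25, adjusted p = 0.996 by edgeR). The neuron marker genes summed there to 81.2 and 64.5 CPM in Wt1 and Wt2 and to 95.9 and 119 CPM in Ho1 and Ho2. The macrophage markers summed to 2.18, 3.69, 24.3 and 2.67 CPM in the same order. The part of either list in the epicardial Hbegf values was not tested. In Cdh5 cells without Npr3 Hbegf was 33.0 and 33.4 CPM in Wt and 47.3 and 39.2 CPM in Ho (log2 0.42 ± 0.14, adjusted p = 0.787 by edgeR). Without Ho2 this value passed (log2 0.56, adjusted p = 0.0365 by edgeR), the only member test between genotypes to do so in any alternative, and it then rested on Ho1 alone against both Wt libraries. Ho1 also differed from both Wt libraries in sex, so genotype and sex cannot be told apart without Ho2. The blood marker genes summed in Cdh5 cells without Npr3 to 132 and 1883 CPM in Wt1 and Wt2 and to 2394 and 183 CPM in Ho1 and Ho2, and their part in the Hbegf values was not tested.

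The Wt and Ho libraries did not overlap for 3 of 4 members tested in endocardium (Nrg1, Erbb2 and Erbb3), where this held for 35.7% of all genes, and for 2 of 5 in ventricular cells (Erbb2 and Erbb3), where it held for 40.2%. In atrial cells it was 2 of 6 (Nrg1 and Erbb3) beside 30.2%, in mesenchyme 0 of 6 beside 33.8%, in epicardium 3 of 4 (Erbb4, Egfr and Hbegf) beside 32.4%, and in Cdh5 cells without Npr3 3 of 4 (Erbb2, Erbb3 and Hbegf) beside 34.9%. The difference of the genotype effect between endocardium and ventricular cells was tested as an interaction. No member of the 5 tested passed, nor did any gene (0%), and 972 genes had an unadjusted p under 0.05. For Erbb2 that difference was 0.11 ± 0.16 on the log2 scale, for Nrg1 0.18 ± 0.38 and for Hbegf 0.25 ± 0.12. None of the pathway genes passed between Wt and Ho in any of the 7 fits, and their median log2 fold change was 0.01 in endocardium and 0.09 in ventricular cells, beside 0.00 and 0.01 over all genes.

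**Figure D4:**
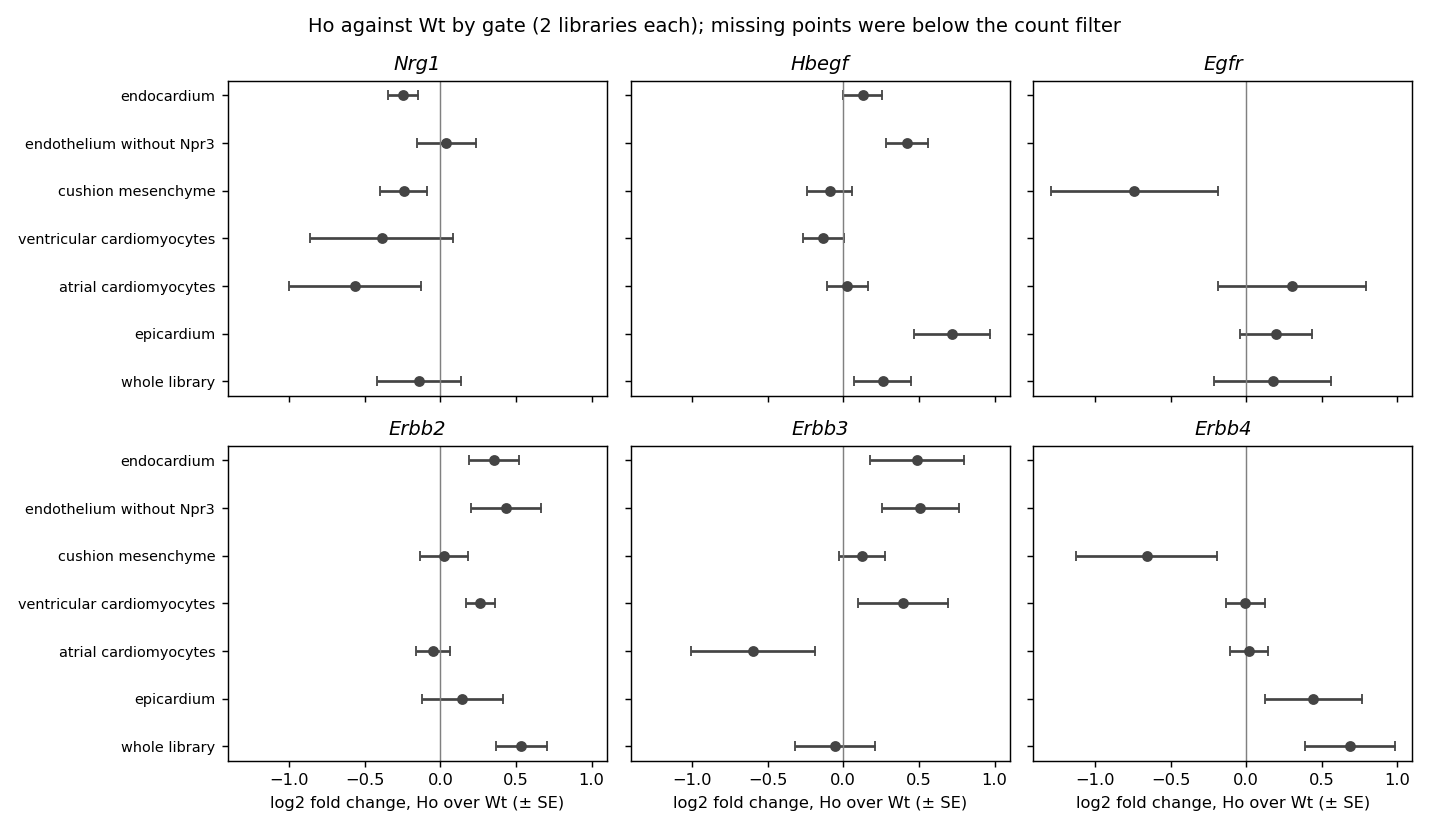
Log2 fold change of Ho over Wt (horizontal axis, linear) for each gene by gate and for whole libraries, with error bars of 1 SE computed from the F statistic of edgeR (2 libraries per genotype). Points are missing where a gene was below the count filter. No value passed an adjusted p of 0.05, and Erbb4 lies at 0.69 in whole libraries but near 0 in ventricular and atrial cells.

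Erbb2 and Erbb4 were also compared in whole libraries. Summed over all kept cells, Erbb4 had 4.24 and 7.42 CPM in Wt1 and Wt2 and 10.0 and 8.01 CPM in Ho1 and Ho2 (log2 fold change of Ho over Wt 0.69 ± 0.30 SE, adjusted p = 0.808 by edgeR), and Erbb2 was 12.8, 16.5, 21.7 and 19.2 CPM (log2 0.54 ± 0.17, adjusted p = 0.808). The Erbb4 value was 0.34 without Wt1 and 1.12 without Wt2. For both genes the Ho libraries were above the Wt libraries, while the other 4 members overlapped, and 37.3% of all genes did not overlap. The ventricular and atrial gates held 18.3% and 36.5% of the UMIs in Wt1 and Wt2 and 48.1% and 36.6% in Ho1 and Ho2. Whole-library Erbb4 and Erbb2 both had this same order of libraries. In a sum over a whole library, more cells of a type and more RNA of the gene per cell cannot be told apart. Within the ventricular and atrial gates the Erbb4 values of Wt and Ho overlapped, while ventricular Erbb2 was higher in both Ho libraries, as in whole libraries.

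**Figure D5:**
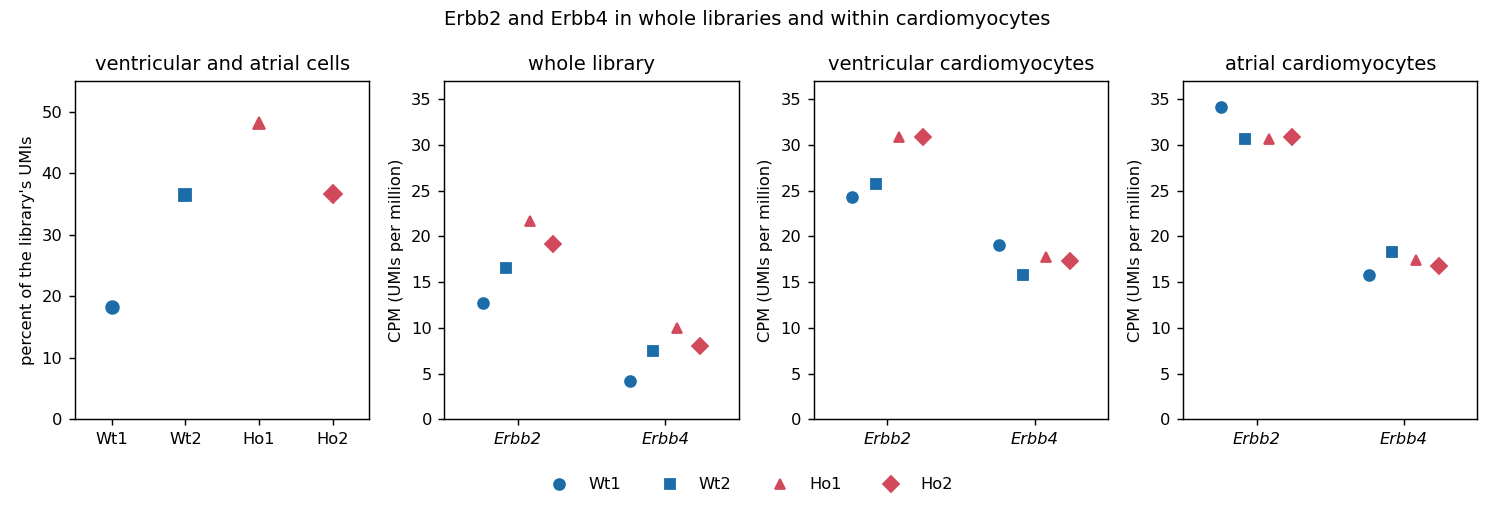
Share of each library's UMIs in the ventricular and atrial gates (left, percent) and levels of Erbb2 and Erbb4 in CPM (linear axes from 0) in whole libraries, ventricular cells and atrial cells, with 1 point per library. Erbb4 runs from 4.24 to 10.0 CPM over whole libraries and from 15.7 to 19.1 CPM over ventricular cells.

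The genes whose levels followed each member most closely were taken as the 3 with the highest Pearson correlation of log2(CPM + 1) over 27 sums, 1 for each gate and library, among 9770 genes. These sums share their libraries, and the values describe likeness across cell types only. Nrg1 was followed by 2700046A07Rik (0.98), Ctsh (0.98) and Elk3 (0.98), of which Elk3 encodes an ETS factor of endothelium. Erbb4 was followed by Flnc, which encodes a filamin of striated muscle (0.99), Popdc3 (0.98) and the small heat shock protein gene Cryab (0.98). Erbb2 was followed by Synpo2 (0.97), Dstn (0.97) and Ndrg4 (0.96), and Erbb3 by the glypican gene Gpc1 (0.93), 2610035D17Rik (0.92) and Fam171a1 (0.92). Egfr was followed by Kcne1l (0.95), Ildr2 (0.94) and Serping1 (0.93), and Hbegf less closely by Pdlim3 (0.88), Rnd2 (0.88) and Bmper (0.86). Among the members themselves, Nrg1 and Erbb4 had a correlation of -0.88 over the 27 sums and Nrg1 and Hbegf one of 0.68.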

How the data were processed

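The deposited files held UMI counts per gene and cell, which the authors made from 10x Genomics 3′ libraries with Cell Ranger 6.1.1 on mm10. The submitters' processing notes also name Seurat 4.1.0. Cells with 500 to 50000 UMIs, 500 to 6000 genes and at most 20% mitochondrial UMIs were kept. In each library the cells with the highest Scrublet scores were removed as doublets at the rate expected for its size (746, 464, 440 and 334 cells in Wt1, Wt2, Ho1 and Ho2), where the study used DoubletFinder. Cells were gated with split points for the cardiomyocyte sum and Myl2 found by Otsu's method (30.2 and 7.43 UMIs per 10000), and 4.01% of cells lay within 0.2 log10 units of the first. Counts were summed per library and gate, for sums of at least 20 cells, scaled by TMM and tested with the quasi-likelihood test of edgeR 4.0.16 in R 4.3.3, with Benjamini-Hochberg adjustment over all genes tested and a threshold of 0.05. Gates were compared with the library as a block, since they share libraries, and Ho was compared with Wt gate by gate. Each SE of an edgeR fold change was its absolute log2 value divided by the square root of the F statistic. Such an SE need not match the p-value exactly. The members and the lists were chosen with earlier results of these data known. The summed level of 1 list of markers of other cell types is not reported here. Pathway genes were named if called, at most 6 per comparison by size of change among those with a mean of at least 10 CPM. Outside this rule, Etv4, Spred2, Dusp4 and Myc were named between the zones, and Areg, Tgfa, Nrg2 and Egf as ligand genes. Alternatives were RLE or no composition scaling (the latter added after the data were seen), no low-count filter, DESeq2 1.42.0, doublets kept, a mitochondrial limit of 10%, stricter gates, gates on counts thinned to 5000 UMIs per cell, Leiden clusters, each genotype alone, each library left out and a replicate block. Positions come from GENCODE M21 on GRCm38. Sequence was not used for the other members.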

Additional observations from a re-analysis of the deposited data

Results flagged for a closer look

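The Erbb3 values of Wt and Ho were ordered one way in some gates and the other way in another. The values of Ho lay above those of Wt, with no overlap, in endocardium (log2 fold change 0.49), ventricular cells (0.40) and Cdh5 cells without Npr3 (0.51), and below them in atrial cells (-0.60). In these gates the libraries also did not overlap for between 30.2% and 40.2% of all genes. None of these values passed an adjusted p of 0.05 in edgeR, the counts were low, with 99 Erbb3 UMIs in endocardium and 78 in atrial cells, and the difference between atrial cells and the others was not tested. Outside all gates Egfr had 258 UMIs, or 41.7% of its total, at 2.63 ± 0.809 CPM.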

How the results depend on the processing

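Of 78 calls of a member between gates, over 16 comparisons, 57 kept their direction and their call in every alternative. The number called was 64 with Ho libraries only, 71 with Wt libraries only or with gates on thinned counts, and 74 to 76 with a library left out. Between Ho and Wt, 0 members were called, with a range of 0 to 1 with a library left out, the 1 being Hbegf in Cdh5 cells without Npr3 when Ho2 was left out. For the other ErbB pathway genes the number was 0, with 1 without the low-count filter, 1 with the crossed replicate block and 0 to 4 with a library left out. Over all genes, calls between Ho and Wt ranged over the fits from 0 to 5 in the analysis reported, from 0 to 222 without the filter and from 0 to 333 with a library left out. The replicate numbers did not pair the samples (correlations of deviations from -0.47 to 0.048), the replicate block called 0 members and 0 to 61 genes per fit, and the crossed replicate block, added after the data were seen, called 0 members and 10 to 122 genes. Without composition scaling, an alternative added after the data were seen, 75 calls between gates and 0 between Ho and Wt were made. The calls lost were Hbegf in endocardium over ventricular cells (-0.09) and Nrg1 in ventricular and atrial cells over epicardium (1.22 and 1.28), and Erbb4 for Ho over Wt became 0.030 in ventricular and -0.000201 in atrial cells. The direction of 1 called value turned: Egfr in ventricular cells over epithelium, -1.75 with all libraries, became 0.29 with Ho libraries only, where 1 library held epithelium. The other values that turned had not passed the test, and the cause was not tested. Nrg1 in endocardium over Cdh5 cells without Npr3 became 0.061 with thinned gates and 0.047 with Wt libraries only, Erbb2 in ventricular over atrial cells 0.089 with Ho libraries only, and Hbegf for Ho over Wt in mesenchyme 0.010 with thinned gates (all log2). Erbb4 for Ho over Wt in ventricular cells became 0.0106 without the filter, 0.043 with doublets kept, 0.00152 with the mitochondrial limit of 10%, 0.032 with stricter gates and 0.077 with Leiden clusters. In atrial cells it became -0.051 with stricter gates, -0.027 with thinned gates and -0.059 with Leiden clusters, and in trabecular over compact cells -0.000595 with Leiden clusters. With a library left out, Nrg1 in endocardium over Cdh5 cells without Npr3 ranged from -0.19 to 0.054, Erbb2 in ventricular over atrial cells from -0.12 to 0.0085, and Erbb2 and Erbb4 in trabecular over compact cells from -0.082 to 0.10 and from -0.19 to 0.35. For Ho over Wt in whole libraries Erbb4 ranged from 0.34 to 1.12 and Erbb2 from 0.37 to 0.72, none called. In the gates the ranges were -0.34 to 0.094 for Hbegf and -0.19 to 0.35 for Erbb3 in mesenchyme, -0.14 to 0.034 for Erbb2 in atrial cells, and -0.17 to 0.14 and -0.072 to 0.13 for Erbb4 in ventricular and atrial cells. Leiden clusters gave no group for Cdh5 cells without Npr3. Egfr had the fewest UMIs of the members (618), which limits what could be seen in most gates.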
